A study of Mus musculus with 2 samples.

Results

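Gzmk+ Havcr2- CD8 T cells are CD8 T cells that carry RNA for granzyme K but none for Havcr2, which encodes the inhibitory receptor TIM-3. They were selected on measured UMIs: cells with at least 500 UMIs, 250 genes and at most 10% mitochondrial UMIs that held 2 or more UMIs of Cd8a and Cd8b1 together, at least 1 of Cd3d, Cd3e or Cd3g and at least 1 of Gzmk. They also had 0 UMIs of Havcr2 and Foxp3, at most 1 of Mki67 and Top2a and at most 2 of C1qa, C1qb and C1qc. A UMI (unique molecular identifier) stands for 1 captured RNA molecule. The rule found 910 such cells, of which the DMSO library gave 324 and the STK library 586, among 21998 cells that passed the first 3 limits and 23456 barcodes in all. They are called the Gzmk+ cells below.

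Both libraries were made from hepatocellular carcinomas of MYC-ON mice, a genotype the labels name without the promoter or the cells that drive the transgene. DMSO and STK, an agent known here only by that code, were given by gavage. Tumours were dissociated and CD45+ leukocytes were sorted, with DAPI used to tell live from dead cells, and 5′ RNA of single cells was counted with the 10x Genomics system. Each group was 1 library with the same batch label, and dose, duration, age, sex and the number of mice pooled were not given. The differences between groups thus have no replicate check and were not tested, and the intervals given are 95% intervals for counting error only.

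CD8 T cells kill target cells through perforin and granzymes and release cytokines and chemokines such as interferon-gamma and CCL5. CD8 T cells with granzyme K RNA have been described in tumours and inflamed tissue in mouse and human, often with chemokine RNA and with PD-1 but without the full set of inhibitory receptors of exhausted cells. Naive and central memory CD8 T cells instead carry Ccr7, a chemokine receptor that brings them into lymph nodes.

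The libraries held 79322966 (DMSO) and 81859811 (STK) UMIs, of which 1170588 and 2195595 lay in Gzmk+ cells. A Gzmk+ cell had a median of 3084 UMIs in DMSO and 3041.5 in STK, from 1371 and 1361 genes. The 2 libraries shared 203 barcodes, but no barcode was a Gzmk+ cell in both. The libraries differed in sex mix. Among cells with Xist, the X-inactivation RNA of female cells, or RNA of 4 Y-linked genes (Uty, Kdm5d, Ddx3y and Eif2s3y), but not both, 18.8% of the DMSO and 74.0% of the STK cells were female. Among the Gzmk+ cells 19 were female and 120 male in the DMSO library, against 177 and 116 in the STK library, while 181 and 280 had neither kind of transcript and 4 and 13 had both. Sex, animal and treatment cannot be told apart between the libraries as wholes, so for many genes the value within male cells is given beside the main one. Where no male value is given, nothing is stated about male cells. The 19 female DMSO cells are too few for most genes.

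The marker genes gave the cells the character of their label. Each cell was thinned to 1000 UMIs to set depths equal, which left out 0 DMSO and 3 STK cells. Ccl5, a chemokine of effector and memory CD8 T cells, was then seen in 97.2% of the DMSO and 96.2% of the STK Gzmk+ cells. Nkg7, a granule membrane protein needed for cytotoxic release, was seen in 94.4% and 91.8%, and Cxcr6, a chemokine receptor of tissue T cells, in 21.9% and 24.4%. B cells at median depths of 1901.5 and 2251 UMIs showed the background: Ccl5 in 3.29% and 4.05%, Nkg7 in 1.65% and 2.02% and Cxcr6 in 0 of 243 and 0 of 247 cells. CD8 T cells that met every other term of the rule but had no Gzmk UMI had Nkg7 in 70.5% and 68.3%. They had Ccl5 in 53.9% and 62.0%, so neither gene was particular to the Gzmk+ cells. Macrophages, at medians of 6211.5 and 8165 UMIs, had Nkg7 in 1.62% and 1.95% and Cd8a in 0.124% and 0.458%. Gzmk, which chose the cells, kept a UMI after thinning in 60.5% and 62.8% of them.

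At the limits of the rule, 94 DMSO and 167 STK Gzmk+ cells had exactly 1 Gzmk UMI, while 567 and 702 cells met every other term with none. Exactly 1 Havcr2 UMI kept out 54 and 74 cells, and a single CD8 UMI kept out 14 and 53. Mki67 and Top2a, genes of dividing cells, summed to 2 or more UMIs in 96 and 145 further cells, which were kept out.

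RNA of other cell types was present. Cells with 3 or more UMIs of other lineages were 16.4% of DMSO and 11.3% of STK Gzmk+ cells, and the dendritic cell and the macrophage and monocyte lists summed to 2403 and 1345 CPM (UMIs per 1e6 UMIs of the set) in DMSO and 3469 and 1557 CPM in STK. A UMI of Cd4 was found in 11 of 324 DMSO and 21 of 586 STK Gzmk+ cells, and Trdc, of the delta chain of gamma-delta T cells, in 2 and 5. The hepatocyte transcripts Alb, Apoa1, Apoa2 or Ttr were found in 61.7% and 50.5%, and 1 or 2 C1q UMIs, of macrophages, in 5.56% and 9.56%. No cell paired Trav11 with Traj18 or Trav1 with Traj33, the alpha chains of invariant NKT and MAIT cells, but joining segments of the alpha chain had a mean of only 0.472 and 0.0154 UMIs per cell, too few to look for such cells.

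Sequences before the start sites are shown first for the genes at both ends of the comparison between libraries, Areg and the inducible heat shock genes. Hspa1a and Hspa1b encode nearly the same 70-kDa heat shock protein, and Hsph1 encodes its larger partner; all have letters of a heat shock element (GAANNTTC or TTCNNGAA), to which heat shock factors bind. Capitals mark those letters, and in Areg the full cAMP response element TGACGTCA; the motifs were chosen after the genes' values were seen. Each sequence is the 250 bases before the start from RefSeq (GRCm38.p6), written 5′ to 3′ on the gene's strand.
Areg (chr5:91139349-91139598, plus strand): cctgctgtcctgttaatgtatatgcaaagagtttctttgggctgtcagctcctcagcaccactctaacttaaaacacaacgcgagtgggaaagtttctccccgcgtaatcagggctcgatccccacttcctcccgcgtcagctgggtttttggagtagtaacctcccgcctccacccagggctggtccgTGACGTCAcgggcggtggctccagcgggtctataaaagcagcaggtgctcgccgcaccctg
Hspa1b (chr17:34959239-34959488, minus strand): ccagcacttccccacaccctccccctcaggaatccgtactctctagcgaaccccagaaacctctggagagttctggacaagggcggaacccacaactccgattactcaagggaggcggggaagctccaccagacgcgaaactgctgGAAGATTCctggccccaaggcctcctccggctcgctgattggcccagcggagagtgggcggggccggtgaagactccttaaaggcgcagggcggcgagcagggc
Hspa1a (chr17:34972157-34972406, minus strand): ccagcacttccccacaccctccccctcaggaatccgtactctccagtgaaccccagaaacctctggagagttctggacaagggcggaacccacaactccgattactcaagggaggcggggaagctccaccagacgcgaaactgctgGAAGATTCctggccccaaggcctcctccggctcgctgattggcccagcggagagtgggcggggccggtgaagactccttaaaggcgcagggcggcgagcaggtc
Hsph1 (chr5:149636337-149636586, minus strand): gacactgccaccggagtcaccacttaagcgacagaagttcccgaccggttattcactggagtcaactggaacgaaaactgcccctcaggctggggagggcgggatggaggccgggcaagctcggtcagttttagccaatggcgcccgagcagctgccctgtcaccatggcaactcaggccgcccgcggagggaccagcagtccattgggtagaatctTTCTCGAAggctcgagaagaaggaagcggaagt

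The Hspa1a and Hspa1b stretches differ at 3 of 250 bases, and their motif lies 104 bases before the start. The heat shock element was found in the promoters of 3932 of 27025 genes (14.5%, each motif reading the same on both strands), and the cAMP response element in 478 (1.77%). Of the 12 genes lowest in STK named below, 10 had a promoter in the table and 4 held a heat shock element, Hspa1b, Hspa1a, Hsph1 and Zeb2. A gene counted where any of its start windows matched, here as over all genes. Zeb2 has several windows, and only the one at chr2:45110278-45110527 matched. The heat shock gene Dnajb1, also among the lowest, had no match. Of the 12 highest, 8 had one and only Areg held the cAMP response element, 61 bases before its start; among the lowest Dusp1 held it too. A match describes letters in these windows and shows no binding.

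Gzmk+ cells took a larger share of the STK library. They were 2.91% of the DMSO cells (324 of 11152, interval 2.60% to 3.23%) and 5.40% of the STK cells (586 of 10846, 4.98% to 5.85%), a ratio of 1.86 (1.63 to 2.12). All CD8-gated cells, those that met every term but the ones on Gzmk and Havcr2, were 8.90% and 13.0% of cells, a ratio of 1.46 (1.36 to 1.58). Within the 993 and 1413 CD8-gated cells the Gzmk+ share was 32.6% and 41.5%, a ratio of 1.27 (1.14 to 1.42). A larger share of sorted cells does not show more cells per tumour.

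The higher share held within each sex. In male cells Gzmk+ cells were 2.70% of DMSO and 7.16% of STK cells, a ratio of 2.65 (2.06 to 3.39), and 29.6% and 44.6% of CD8-gated cells. In female cells they were 1.85% and 3.84% of all cells, a ratio of 2.07 (1.30 to 3.31), and 24.4% and 34.6% of CD8-gated cells, where the ratio of 1.42 had an interval from 0.945 to 2.14. The CD8-gated cells with neither Gzmk nor Havcr2 were a smaller share of the gate in STK, at 57.1% and 49.7%, and at 57.8% and 48.5% in males. The Havcr2-positive cells were 10.3% and 8.85%, with intervals that overlapped, but 12.6% and 6.92% in males. In females they were 5.13% (4 of 78 cells) and 8.41%, a ratio of 1.64 with an interval from 0.606 to 4.44. Cells of each sex stem from separate mice, so a comparison within a sex is still one between animals.

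**Figure D1:**
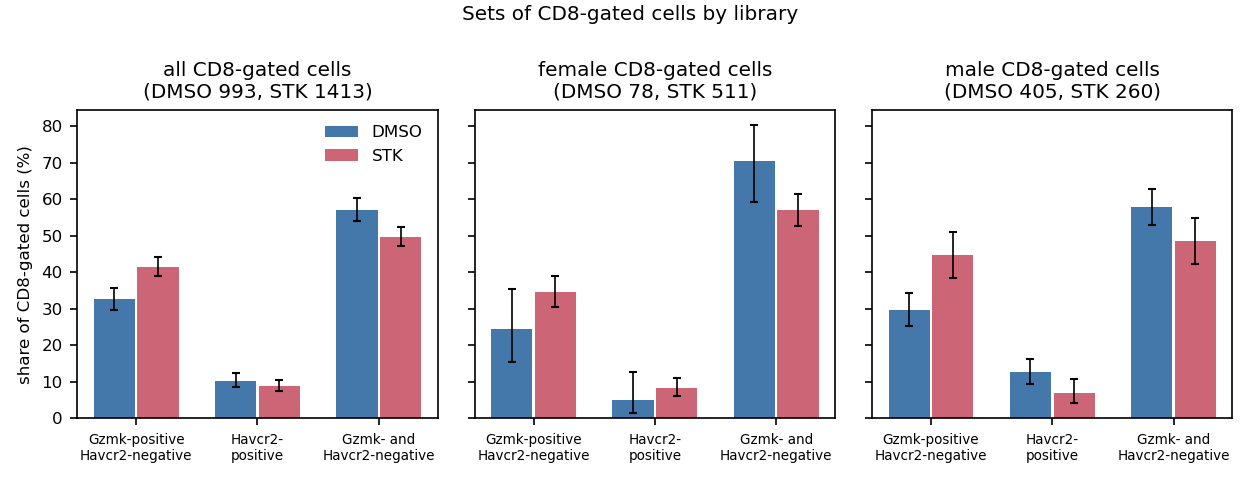
Share of CD8-gated cells (%, y axis) in each of 3 sets (x axis), for all, female and male cells of the DMSO (blue) and STK (red) libraries, with exact 95% counting intervals. The Gzmk-positive Havcr2-negative bar is higher in STK in each panel, 41.5% against 32.6% over all CD8-gated cells.

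Among CD8 T cells of the same library, the Gzmk+ cells differed from those with neither Gzmk nor Havcr2, 567 in DMSO and 702 in STK, in effector and PD-1 genes. Since the rule chose the cells, these are descriptions, and the Gzmk-negative Havcr2-negative cells were deeper, with medians of 4213 and 4129 UMIs. Levels are CPM, the UMIs of a gene scaled to 1e6 UMIs of the set. Pdcd1, encoding PD-1, stood at 328 CPM in DMSO Gzmk+ cells against 43.1 in the Gzmk-negative Havcr2-negative set, and at 553 against 115 in STK. Gzmb, the granzyme that starts apoptosis in targets, stood at 1159 against 188 and at 1528 against 304. Ccl5 was 5.28 and 3.81 times higher, Cxcr6 4.13 and 3.14 times and the serpin gene Serpina3g 5.10 and 3.38 times. Il10ra, the IL-10 receptor, was 4.15 and 2.95 times higher, and Fasl, the ligand of the death receptor Fas, was at 219 against 68.3 and 259 against 101 CPM. Tox, a regulator of exhausted T cells, was 3.69 and 2.76 times higher, and Eomes, a transcription factor of memory CD8 T cells, was seen in 12.3% and 8.75% of thinned Gzmk+ cells against 6.43% and 4.01%.

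Genes of naive cells went the other way. Ccr7 was 3.67 times lower in the DMSO Gzmk+ cells and 6.34 times lower in STK. Lef1 and Tcf7, transcription factors of naive and memory T cells, were 2.78 and 2.30 times lower in DMSO and 2.80 and 2.61 times lower in STK. Satb1, a chromatin organiser, was 4.56 and 3.70 times lower and Il7r, the IL-7 receptor, 2.60 and 2.41 times. Apart from the naive genes, Itgae, encoding CD103 of epithelial resident cells, was at 0.309% and 0.172% of thinned Gzmk+ cells. In the Gzmk-negative Havcr2-negative set it was at 0.714% and 2.44%, with intervals that overlapped in DMSO but not in STK. Before thinning the Gzmk+ cells had only 4 and 18 UMIs of it. B cells showed it in 0 of 243 cells in DMSO and 0.405% in STK.

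Beside the Havcr2-positive set the Gzmk+ cells were closer. They had more RNA of Gramd3 (1.95 and 1.97 times), Il7r (1.78 and 1.86 times) and Hopx, a regulator kept in memory T cells (1.83 and 1.70 times). Ly6c2, a surface marker found on memory CD8 cells, was 1.74 and 1.56 times higher. Genes ranked above Ly6c2 also included Xcl1 (2.13 and 1.81 times), H19 (1.75 and 1.98 times), Klk8 (1.65 and 2.07 times) and Cxcl10 (7.91 and 1.62 times). After thinning Ly6c2 was seen in 52.5% and 47.3% of Gzmk+ cells. In the Gzmk-negative Havcr2-negative set it was seen in more, 69.8% and 60.2%. Lag3, an inhibitory receptor, was seen after thinning in 7.10% of DMSO Gzmk+ against 18.6% of Havcr2-positive cells and in 6.35% against 15.3% in STK. Tox was seen in 10.2% against 19.6% and in 10.5% against 14.5%, with intervals that overlapped in both libraries. Ranked by the smaller of the differences in the 2 libraries, the genes furthest below the Havcr2-positive set were those of MHC class II and dendritic cells: H2-Ab1 6.39 and 6.80 times, Cd74 5.29 and 5.39 times and Cst3 4.40 and 4.91 times lower. Areg was further below in DMSO, at 0.854 against 102 CPM, but at 66.0 against 217 CPM in STK. H2-Ab1, Cd74 and Cst3 are not T cell genes, and their part in the other differences between these sets was not tested.

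**Figure D2:**
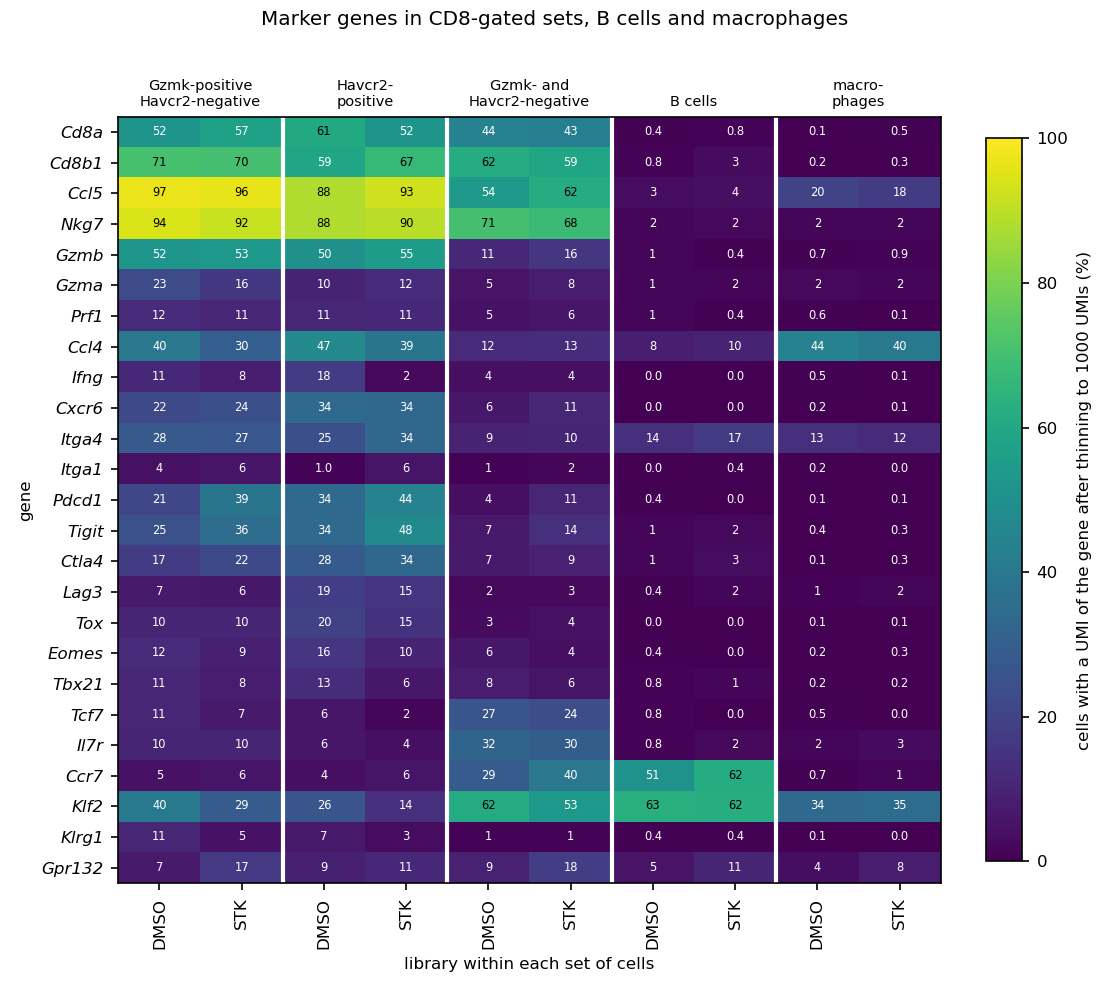
Cells with at least 1 UMI of a gene after thinning to 1000 UMIs (%, colour and number), for 25 genes (y axis) in the 3 CD8-gated sets, B cells and macrophages of each library (x axis). Ccl5 and Nkg7 are seen in over 90% of Gzmk-positive Havcr2-negative cells in both libraries, and Pdcd1 in 21.3% of those cells in DMSO and 38.9% in STK.

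The Gzmk+ cells were not uniform. They were split by Gzmk UMIs into 94, 157 and 73 DMSO and 167, 289 and 130 STK cells with 1, 2 to 4 and 5 or more, whose median depth was 2629 UMIs at 1 and 3556 at 5 or more in DMSO, and 2861 and 3566.5 in STK. Il7r was lower with more Gzmk, at 171, 161 and 55.9 CPM in DMSO and 281, 128 and 77.1 in STK. Gzmb was higher instead, at 933, 1186 and 1344 CPM in DMSO and 1167, 1501 and 1936 in STK, and Tox stood at 95.2, 109 and 207 and at 98.1, 109 and 154.

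The cells were also split by Pdcd1. After thinning, 69 DMSO and 227 STK Gzmk+ cells had a Pdcd1 UMI. Gzma, another granzyme, was seen in 10.1% of them against 26.3% of cells without one in DMSO, and in 10.1% against 20.2% in STK, with intervals that did not overlap in either library. For the other genes described here the intervals overlapped. Il7r was seen in 4.35% against 11.8% and in 6.61% against 12.9%. Tox was seen in 17.4% against 8.24% and 14.1% against 8.15%, and Cxcr6 in 31.9% against 19.2% and 29.1% against 21.3%. Gzmb was seen in 53.6% against 52.2% and 55.1% against 52.2%.

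Between the libraries most genes of the Gzmk+ cells stood at similar levels. A minimum of 50 CPM and 50 UMIs in whichever library was higher left 3160 genes, without those of the rule. Of these, 159 (5.03%) were at least 1.5 times higher in STK and 130 (4.11%) at least 1.5 times lower. The median log2 ratio was 0.01. The interval of the ratio lay wholly beyond 1.5 times for 65 and 53 of them. Of the 159, 104 were also at least 1.5 times higher in male cells alone, and of the 130, 98 were also lower by that factor. Within male cells, with 1559 genes at the same minimum, the shares were 8.34% and 6.93%.

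**Figure D3:**
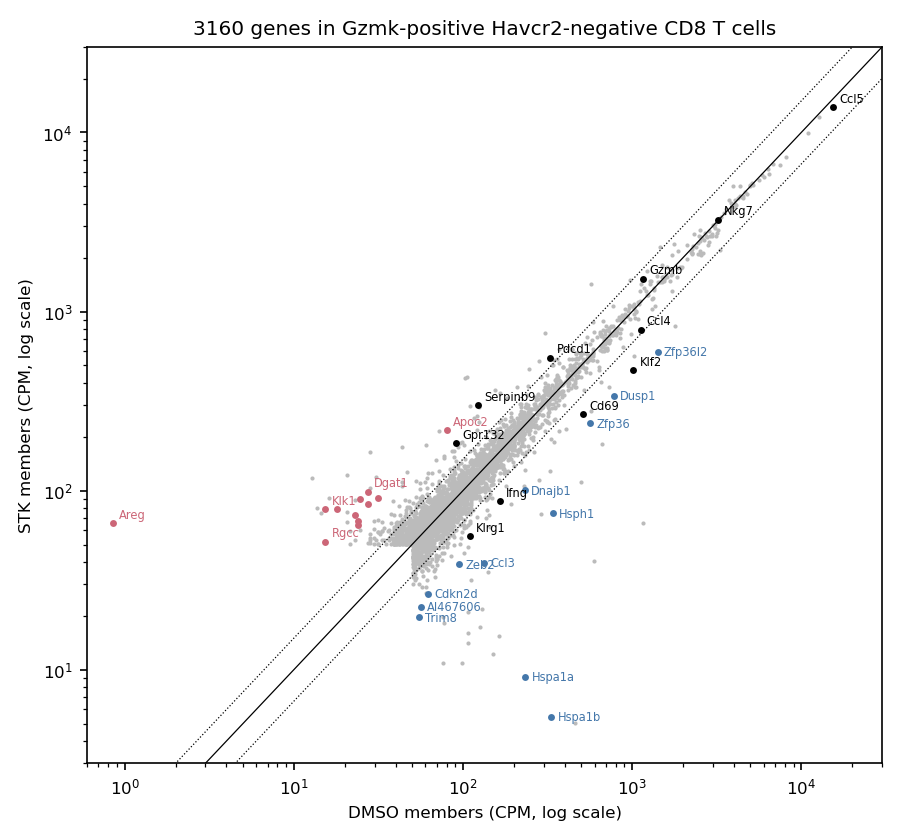
CPM of 3160 genes in Gzmk-positive Havcr2-negative CD8 T cells of the DMSO (x axis) and STK (y axis) libraries, both on log scales, with lines at equal levels and at 1.5 times. Red and blue points are the 12 highest and 12 lowest named genes (5 of the 12 red ones are labelled) and black points are genes described in the text; Areg lies far to the left at 0.854 CPM in DMSO, and Hspa1a and Hspa1b far below the line.

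Areg led the genes higher in STK. It encodes amphiregulin, a growth factor that acts on the EGF receptor, and lies at chr5:91139599-91148432 (GRCm38). It had 1 UMI in 1 DMSO Gzmk+ cell and 145 UMIs in 35 STK cells, 0.854 and 66.0 CPM, a ratio of 77.3 with an interval from 13.7 to 3074. In STK 66.9% of those UMIs lay in 5 cells. In male cells it had 1 and 20 UMIs (ratio 21.2, 3.39 to 879). Areg was also higher in STK in the other CD8-gated sets, at 3.05 and 61.9 CPM in the Gzmk-negative Havcr2-negative set and 102 and 217 CPM in the Havcr2-positive set.

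A further 7 of the 12 highest genes have various roles. Crem, a cAMP-responsive transcription factor, stood at 24.8 CPM in DMSO and 89.7 in STK, 3.62 times higher (2.44 to 5.55). Nr4a3 and Egr1, early genes of T cell activation, were 3.10 times (2.12 to 4.66) and 2.70 times (1.79 to 4.21) higher. Dgat1, an enzyme of triglyceride synthesis, was 3.62 times higher (2.49 to 5.42), Rgcc, a cell cycle regulator, 3.38 times, Nabp1, a single-stranded DNA binding protein, 2.88 times, and Rrad, a small GTPase, 2.84 times. These 7 genes were between 2.65 and 4.53 times higher in male cells, and each was seen in 73 to 158 STK cells.

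The higher level of Crem and Nr4a3 was shared by the other CD8-gated sets. Crem was 3.94 times higher in the STK library in the Gzmk-negative Havcr2-negative set and 3.08 times in the Havcr2-positive set, and Nr4a3 3.34 and 3.97 times. No comparison of the sizes between sets was made.

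The other 4 of the 12 highest genes had most of their STK UMIs in few cells. Klk1, Krt8, Krt18 and Apoc2, a kallikrein, a pair of keratins and an apolipoprotein, had 81.0%, 76.9%, 80.6% and 74.3% of their STK UMIs in 5 cells. Krt8 and Krt18 stood at 1.06 and 1.18 times in male cells. Klk1 had 0 UMIs in the female and the male DMSO cells, all 18 of its DMSO UMIs lying in cells with no sex transcript, where its ratio was 0.440. Over the fixed list of hepatocyte and tumour RNA, 12 of 13 measured genes were at least 1.5 times higher in STK and their summed level was 613 CPM in DMSO and 2145 in STK, but the median log2 ratio of the list was 1.956 over all and -0.02 in male cells. How far such RNA enters these 4 genes was not tested; without cells with 3 or more UMIs of other lineages Klk1, Krt8, Krt18 and Apoc2 stood at 1.04, 1.39, 0.904 and 0.752 times, and the list's median log2 ratio at -0.23.

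The lowest genes in STK were heat shock genes. Hspa1b (chr17:34956436-34959238, minus strand) had 390 UMIs in 88 DMSO and 12 UMIs in 7 STK Gzmk+ cells, 333 and 5.47 CPM, and Hspa1a (chr17:34969190-34972156, minus strand) 273 UMIs in 67 and 20 in 10 cells, 233 and 9.11 CPM. Reads of these near-identical genes may be split between them, so their sum is the safer value. It was 566 CPM in DMSO and 14.6 in STK, 38.9 times lower (27.3 to 57.3), with a UMI in 33.6% and 2.56% of cells. Male cells had 242 and 2 UMIs of the pair, in 49 of 120 and 2 of 116 cells. Hsph1 stood at 340 and 74.7 CPM, 4.55 times lower, and Dnajb1, a co-chaperone of the same system, at 232 and 100.2 CPM, 2.31 times lower.

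The fixed list of 20 heat shock chaperones had 13 genes at least 1.5 times lower and 1 higher in STK, with a median log2 ratio of -0.66 and of -1.04 in male cells. Over all 10338 genes with at least 10 UMIs, the minimum for lists, 10.6% were lower and 13.3% higher by that factor and the median was 0.01. These values are the background for the counts of every list. The cochaperones Stip1 and Cacybp were 2.30 and 2.16 times lower, and the constitutive Hspa8 stood at 0.666 times its DMSO level. Hsp90ab1 was 1.19 times lower over all cells, and its male ratio was 0.614. The lower sum of Hspa1a and Hspa1b was not particular to the Gzmk+ cells: it was 17.1 times in the Gzmk-negative Havcr2-negative set, 87.8 times in the Havcr2-positive set and 11.5 times over all cells outside the CD8 gate.

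Immediate-early genes divided. Of 26 measured, 5 were at least 1.5 times higher and 9 lower, with a median log2 ratio of 0.07. Beside the higher Nr4a3 and Egr1, the mRNA-decay factors Zfp36 and Zfp36l2 stood at 566 and 237 CPM and at 1413 and 595 CPM, 2.39 and 2.38 times lower, and the phosphatase gene Dusp1 at 777 and 337 CPM, 2.31 times lower, with a male ratio of 0.609. Fos and Jun, subunits of AP-1, stood at 0.537 and 0.558 times their DMSO level. Nr4a1 and Nr4a2 stood at 1.14 and 1.05 times.

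The other genes of the 12 lowest were Ccl3, Trim8, AI467606, Zeb2 and Cdkn2d. Ccl3, a macrophage inflammatory chemokine, stood at 133 and 39.6 CPM, 3.36 times lower, with a UMI in 17.9% and 7.0% of cells before thinning and 8.33% and 3.09% after it. Zeb2, a transcription factor of terminal effector CD8 T cells, stood at 94.8 and 38.7 CPM, 2.45 times lower, but at 0.828 times in males (0.471 to 1.44). Trim8, a ubiquitin ligase, AI467606 and the cell cycle inhibitor gene Cdkn2d were 2.79, 2.53 and 2.36 times lower. In male cells they were 2.96, 2.26 and 2.06 times lower. The male ratio of Cdkn2d, 0.486, had an interval that included 1 (0.215 to 1.03).

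Of 16 cytotoxic granule genes measured, 3 were at least 1.5 times higher and 1 lower in STK, with a median log2 ratio of 0.11. Serpinb9, an inhibitor that shields killer cells from their own granzyme B, stood at 123 CPM in DMSO and 299 in STK, 2.43 times higher (2.03 to 2.93), and Serpinb6b at 165 and 353, 2.14 times higher; in male cells the ratios were 2.36 and 2.31. Serpinb9 was also higher in STK in the Gzmk-negative Havcr2-negative set, at 74.4 and 186 CPM, so its difference was not particular to the Gzmk+ cells. Gzmb was 1.32 times higher (1.24 to 1.40), with a UMI in 52.5% and 53.3% of thinned cells. Gzma stood at 982 and 752 CPM, 1.31 times lower, and at 0.937 times in males. Gzmm, granzyme M, was 1.91 times lower, and Prf1, perforin, at 131 and 111 CPM differed by less than its counting interval. Gzmk itself was at 867 and 826 CPM.

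Effector cytokines and chemokines included 4 genes higher and 6 lower of 17 measured, with a median log2 ratio of -0.15. Ifng, interferon-gamma, stood at 166 CPM in DMSO and 87.9 in STK, 1.89 times lower (0.462 times the DMSO level in males). Thinned cells had an Ifng UMI in 11.1% and 7.72%, with overlapping intervals. Ccl4 was 1.41 times lower and Ccl5 1.11 times lower, though Ccl5 was 1.23 times higher in males. Xcl1 was 1.80 times higher over all cells but went in opposite directions by sex, as given below.

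Among inhibitory receptors and exhaustion genes 3 of 20 were higher and 1 lower, beside 13.3% and 10.6% over all genes measured for lists. The median log2 ratio of the list was -0.03, and 0.44 in male cells. Pdcd1 (chr1:94038305-94052553, minus strand) was 1.69 times higher in STK (1.502 to 1.90) and 2.13 times higher in males. After thinning it was seen in 21.3% of DMSO (17.0% to 26.2%) and 38.9% of STK cells (35.0% to 43.0%), a ratio of 1.83 (1.45 to 2.31). Tigit, another inhibitory receptor, was seen in 24.7% and 35.9%, and its level was 1.49 times higher over all and 2.11 times in males. Lag3 at 58.1 and 67.0 CPM, Ctla4 at 249.4 and 283 CPM and Tox at 131 and 118 CPM each had a ratio whose interval included 1. Pdcd1 and Tigit were also higher in STK in the Gzmk-negative Havcr2-negative set (43.1 and 115 CPM, and 72.5 and 167 CPM).

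Of 17 costimulation receptors 3 were higher and none lower by 1.5 times, beside 13.3% and 10.6% over all genes measured for lists. Tnfrsf9, encoding 4-1BB, was 1.85 times higher and was seen in 1.85% and 7.20% of thinned cells. Icos was 1.95 times higher (1.29 times in males, with an interval that included 1), and Tnfrsf1b, the TNF receptor 2 gene, 1.90 times. None of 22 T cell receptor signalling genes and none of 25 genes of mitochondrial respiration passed 1.5 times either way.

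Of 19 naive, memory and precursor genes measured, 3 were at least 1.5 times higher and 2 lower in STK, with a median log2 ratio of 0.02, and of 22 transcription factors of T cell fate 2 were higher and 3 lower, with a median of -0.18. The higher ones included the transcription factor genes Foxo1, at 49.5 and 74.7 CPM, Irf8, at 71.8 and 114 CPM, and Ikzf2, at 44.4 and 67.4 CPM. The dendritic cell list also summed higher in STK, at 2403 and 3469 CPM. The part of such RNA in the Irf8 level was not tested. Klf2, which maintains egress receptors, stood at 1015 CPM in DMSO and 472 in STK, 2.15 times lower and 2.49 times in males, and was seen in 40.4% and 29.2% of thinned cells. Tcf7 was 1.39 times lower (ratio 0.717, 0.577 to 0.893), and its share after thinning was 10.8% and 7.03%, with overlapping intervals. Klrg1, a receptor of short-lived effectors, stood at 109 and 56.0 CPM, 1.95 times lower, and was seen in 10.8% and 4.97%. It was not lower among cells with rarer pairs of receptor V segments, as given below. Prdm1, encoding the effector regulator Blimp-1, was 2.26 times lower. Ccr7, S1pr1 and Il7r had ratios whose intervals included 1.

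Surface genes of homing and early activation differed both ways. Cxcr4, a chemokine receptor, was 1.92 times higher and Cd69, which holds T cells in tissue, 1.92 times lower. In male cells Cxcr4 was 2.32 times higher and Cd69 2.48 times lower. Cxcr3 and Itga4 were seen in 20.7% and 21.4% and in 28.1% and 27.3% of thinned cells.

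Gpr132, an acid- and lipid-sensing receptor named in the study's title, lies at chr12:112850873-112868228 on the minus strand. It had 106 UMIs in the DMSO and 404 in the STK Gzmk+ cells, 90.6 and 184 CPM, a ratio of 2.03 (1.64 to 2.54) and of 2.33 in males. Thinned cells had a UMI in 7.41% (4.80% to 10.8%) and 16.6% (13.7% to 19.9%), against 5.35% and 10.5% in B cells and 3.86% and 7.67% in macrophages. The STK share was higher than the DMSO share in all 5 cell sets of the heat map, so the difference was not particular to the Gzmk+ cells. Soat1, the sterol esterification enzyme named in the same title, had 35 and 75 UMIs, a ratio of 1.14 (0.755 to 1.76), and Soat2 6 and 19.

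**Figure D4:**
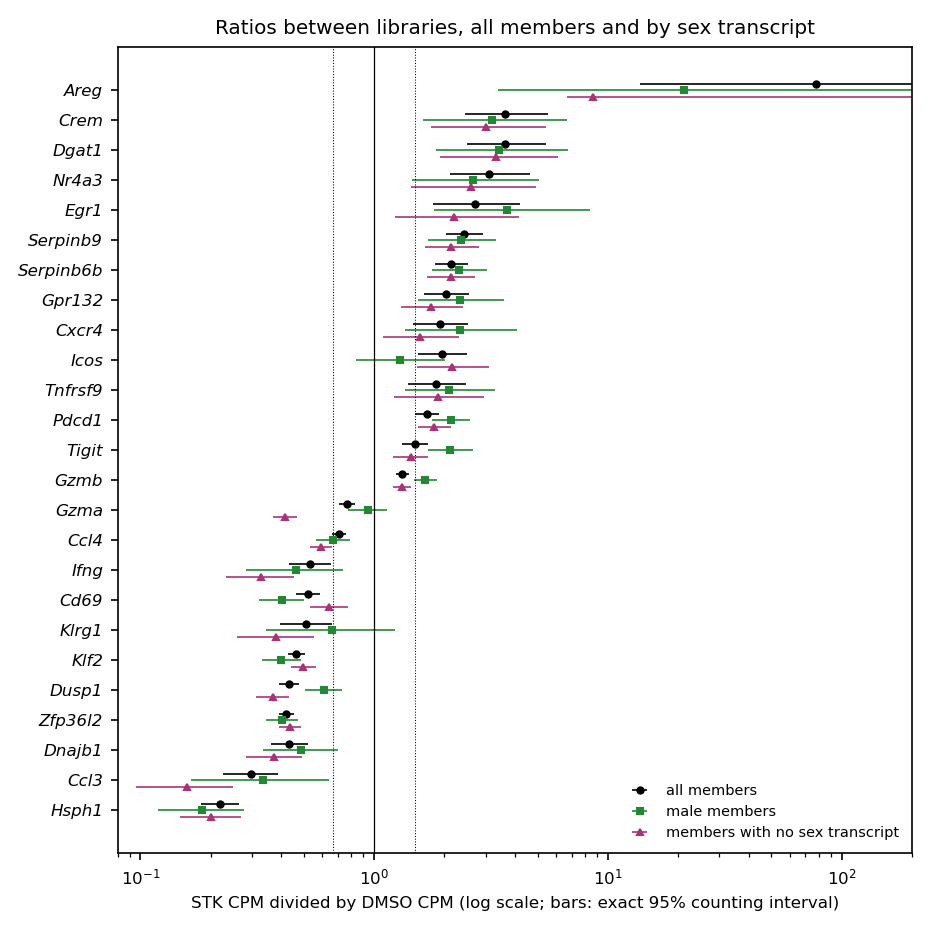
STK CPM divided by DMSO CPM (x axis, log scale) for 25 genes (y axis) in all Gzmk-positive Havcr2-negative CD8 T cells (black), male ones (green) and those with no sex transcript (purple), with exact 95% counting intervals, dotted lines at 1.5 times, and a count of 0 set to 3 UMIs. The 3 estimates lie on the same side of 1 for the genes shown. Genes from the 12 highest and 12 lowest were chosen to lie on the same side in female and male cells. Their shared direction in male cells is therefore no separate result, and female estimates are not shown. Areg has the widest interval, and Hsph1 the lowest ratio over all and over male cells.

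Over all genes measured for lists, 10.6% were at least 1.5 times lower and 13.3% higher. Type I interferon response genes had 4 of 32 lower and none higher, with a median log2 ratio of -0.06. The lower ones included Ifit3 (138 and 77.9 CPM) and Usp18 (104 and 62.4 CPM). Interferon-gamma response and class I genes had 3 lower and 1 higher of 32. Cholesterol synthesis genes had 4 higher and 1 lower of 25, all of them below 50 CPM; Ebp, a sterol isomerase and the one member above that minimum, stood at 86.3 and 96.6 CPM. Proliferation genes had 5 of 26 lower and none higher, but cells with more than 1 UMI of Mki67 and Top2a were not among those studied.

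T cell receptor V segments gave a readout that the rule did not use. A segment was assigned where it had at least 2 UMIs and more than any other of its chain, which was so for Trbv in 96.9% of DMSO and 86.5% of STK Gzmk+ cells and for Trav in 84.9% and 45.1%. Mean UMIs per cell were 18.3 and 6.54 for Trbv and 8.54 and 2.10 for Trav, and both were lower in STK in the other CD8-gated cells too. Over the cells of both libraries together, the most frequent beta segments were Trbv3 (14.0% of DMSO and 11.2% of STK assigned cells), Trbv13-1 (3.82% and 12.8%) and Trbv19 (11.5% and 6.90%), but within DMSO Trbv4 led (14.3%) and within STK Trbv13-1, with Trbv12-2 (11.05%) above Trbv19. Of segments with at least 20 cells, Trbv16, Trav14-3 and Trbv12-2 had the largest ratios of STK to DMSO, at 0.318% and 3.94%, 0.727% and 7.20%, and 1.27% and 11.05%. Trav7-3, Trbv2 and Trbv4 had the smallest, at 18.9% and 0.758%, 6.05% and 0.789%, and 14.3% and 2.56%. Reads of near-identical V genes, such as those of the Trav7, Trbv12 and Trbv13 families, may be split between copies.

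Pairs of a Trav and a Trbv segment were repeated among the Gzmk+ cells. Of 269 DMSO cells with both segments, 153 (56.9%, 50.7% to 62.9%) shared their pair with at least 2 others, and of 236 STK cells 106 (44.9%, 38.5% to 51.5%). In the Gzmk-negative Havcr2-negative set this share was 22.3% of 422 (18.4% to 26.6%) and 9.93% of 282 cells (6.70% to 14.0%). The Havcr2-positive cells, at 56.0% of 91 and 40.3% of 62, resembled the Gzmk+ cells. The share grows with the number of paired cells, which was larger in the Gzmk-negative Havcr2-negative set in both libraries. A shared pair of V segments is not a clonotype, since the junctions are not in the counts.

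The leading pairs differed between the libraries. Trav7-3 with Trbv4 was held by 30 of the 269 DMSO cells (11.2%), and Trav16 with Trbv15 and Trav7-3 with Trbv3 by 18 and 17. Of 19 cells of the first pair with an alpha joining segment, 16 had Traj9. In STK Trav7-5 with Trbv12-2 was held by 26 of 236 cells (11.02%), Trav14-3 with Trbv13-1 by 12 and Trav12-2 with Trbv26 by 9. None of these 6 pairs was seen in the Gzmk+ cells of the other library, which allows up to 1.27% of the STK and 1.12% of the DMSO cells.

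The leading pair of each library was also found in its Havcr2-positive cells, in 18 of 91 (19.8%) in DMSO and 7 of 62 (11.3%) in STK, and in 2 of 422 and 1 of 282 cells of the Gzmk-negative Havcr2-negative set. Among sexed cells the DMSO pair had 10 male and 0 female cells and the STK pair 12 male and 1 female. Trav12-2 with Trbv26 had 5 female and 0 male cells. The mice behind each library could not be separated beyond this.

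Cells of repeated pairs differed from those of rarer pairs in the level of several genes. Pairs at 5% or more held 65 of the repeated-pair cells in DMSO, in 3 pairs, and 38 in STK, in 2 pairs. A few pairs thus weigh on these levels. Gzmb stood at 1568 CPM in the 153 DMSO cells of pairs held by 3 or more, against 666 in the 116 cells of rarer pairs, and at 2716 against 1221 CPM in the 106 and 130 STK cells. Pdcd1 stood at 376 against 262 and 715 against 430 CPM. Tox stood at 159 against 84.5 and 168 against 103 CPM, with intervals that overlapped in STK. Gzmk stood at 1037 against 636 and 954 against 682 CPM, but the rule chose the cells by this gene. Tcf7 stood at 66.2 against 182 and 42.1 against 140 CPM, and Il7r at 58.6 against 144 and 42.1 against 209 CPM. Pdcd1 was thus higher in STK than in DMSO among cells of repeated and of rarer pairs. Klrg1 stood at 174 CPM in DMSO and 76.2 in STK among repeated pairs. Among rarer pairs Klrg1 stood at 59.2 and 67.2 CPM, with intervals that overlapped. Gpr132 was lower in repeated pairs, at 58.6 against 114 and 137 against 212 CPM, with intervals that overlapped in STK.

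The 30 DMSO cells of Trav7-3 with Trbv4 had 55.0 CPM of Gzma, against 1061 over all repeated pairs, and no UMI of Tcf7. The 26 STK cells of Trav7-5 with Trbv12-2 had 199 CPM of Gzma against 594, and no UMI of Tcf7 or Klrg1. A count of 0 allows up to 40.6 CPM in the DMSO pair and 43.2 in the STK pair. Over all STK repeated pairs Tcf7 stood at 42.1 CPM, within that limit. Both had more Pdcd1 than the rarer pairs, at 550 and 726 CPM.

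**Figure D5:**
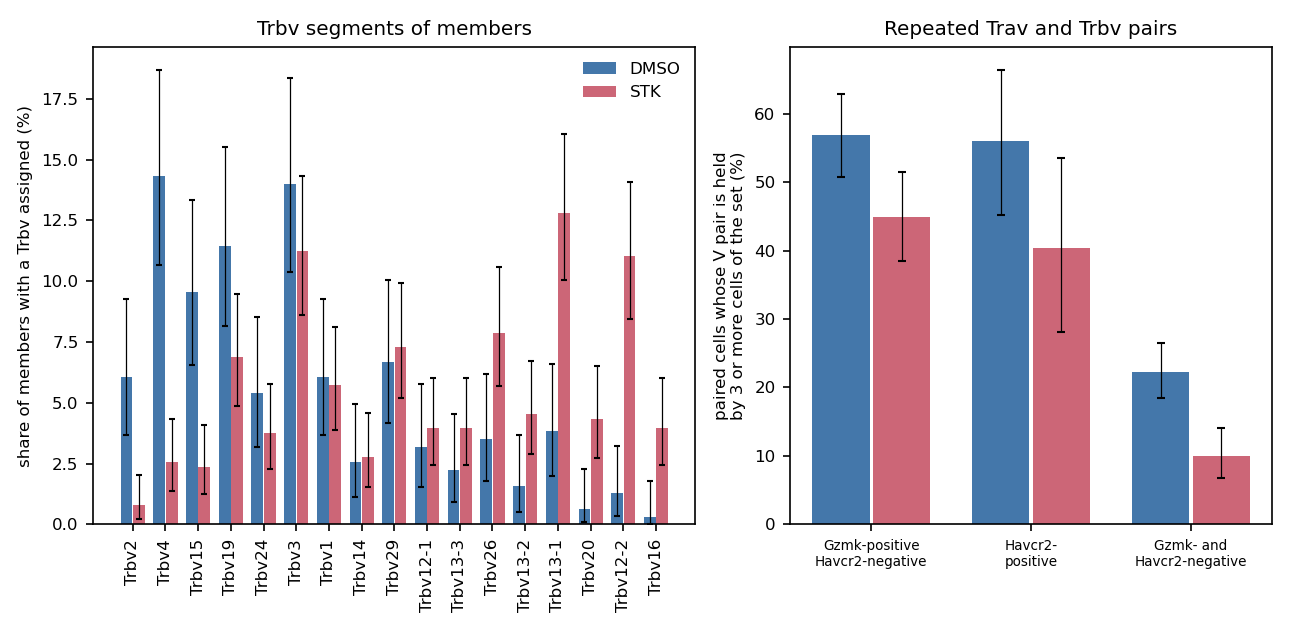
Left: share of Gzmk-positive Havcr2-negative CD8 T cells with a Trbv assigned that carry each of the 17 Trbv segments with at least 20 cells (%, y axis), DMSO blue and STK red. Right: share of cells with both V segments whose pair is held by 3 or more cells of the same set (%, y axis) in the 3 CD8-gated sets; bars in both panels carry exact 95% counting intervals, and the first 2 sets stand at 40.3% to 56.9%, the third at 9.93% and 22.3%.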

How the data were processed

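The deposited files hold raw UMI counts per gene and barcode, made by the authors with Cell Ranger (6.0.2 per the file headers) on GRCm38 (mm10), per the submitters' processing notes; no normalization was applied to them. The gene annotation release is not given in the sources used here. Gene positions came from GENCODE vM21 on GRCm38. Both tables list 32285 genes.

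Cells were chosen by the rule given in the report, and the chosen cells, gene lists and named genes were selected with earlier results of these data known. Counts were summed per library and scaled to CPM (python 3.11.15, numpy 2.4.6, scipy 1.17.1). The fold computation was tested on simulated data. Shares have exact Clopper-Pearson, ratios of counts exact conditional binomial and ratios of shares log intervals; a count of 0 was set to 3 UMIs in ratios. A gene counted as higher or lower past 1.5 times. Named genes were the 12 highest and 12 lowest ratios among genes past a minimum (50 CPM and 50 UMIs where higher) and on the same side of equal CPM in female and male cells (compared before any 0 was replaced), leaving out receptor, ribosomal, mitochondrial, sex-linked, erythroid, hepatocyte and granule genes and gene models. A panel of 49 genes was named whatever its value, and lists gave the members furthest from equal. Of 26 lists, genes with at least 10 UMIs were measured. Doublets were kept: Scrublet (scanpy 1.11.5) called 217 DMSO and 0 STK cells, so its threshold was not used. Alternatives left out the 8% highest scores, changed the filters, the Gzmk limit, the depth, the weighting and the minimum, or used 1 sex. The set of CD8-gated cells with neither Gzmk nor Havcr2 was formed after the data were seen, and 1 gene is not reported here.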

Additional observations from a re-analysis of the deposited data

Results flagged for a closer look

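In 6 genes of the Gzmk+ cells the ratio between libraries lay beyond 1.5 times in opposite directions within female and within male cells. The difference between the sexes was not tested, and the female DMSO value rests on 19 cells.

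Xcl1 was 3.29 times higher in STK among female cells, from 6 UMIs in DMSO and 319 in STK, and stood at 0.474 times among male cells, from 76 and 34 UMIs. In STK 44.4% of its UMIs lay in 5 cells.

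The other 5 are genes of myeloid cells. S100a8 and S100a9, which encode proteins abundant in neutrophils, had 0 UMIs in female DMSO cells. With 3 UMIs in place of 0 their female ratios were 5.68 and 13.1, with lower counting limits of 4.58 and 10.6. In male cells they stood at 0.151 and 0.138 times. Retnlg had a female ratio of 3.63 computed in the same way (lower limit 2.92), with all 176 STK UMIs in 1 cell, and a male ratio of 0.245 (upper limit 0.348) with 0 UMIs in STK. Lyz2, of macrophages and monocytes, stood at 0.182 times in female and 3.35 times in male cells, with 71.4% of its DMSO and 76.6% of its STK UMIs in 5 cells. Cd14, the monocyte receptor, stood at 0.182 times in female and 20.5 times in male cells, all DMSO UMIs being in 5 cells.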

How the results depend on the processing

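With 1 library per group, no replicate could be left out, and depth limits genes below about 50 UMIs. No paired analysis was possible because each group is 1 library. Under the 7 other choices of cells that give it, the share of Gzmk+ cells stayed higher in STK. Its ratio was 2.65 among male cells, and within CD8-gated cells 1.51 among male and 1.42 among female cells. A minimum of 20 CPM and 20 UMIs gave 421 genes higher and 383 lower, no minimum 1841 and 1960, and female cells 690 and 20, from 19 DMSO cells. The first 2 admit genes with few UMIs. Of the genes past 1.5 times either way, 55.0% were higher in STK, and 97.2% in female cells.

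With the rule applied after thinning to 1000 UMIs, Klk1 stood at 0.0185, Krt18 at 0.619 and Apoc2 at 0.930 times, the hepatocyte list had a median log2 ratio of -0.19 and the NK and gamma-delta list -0.41. Without cells with 3 or more UMIs of other lineages Krt18 stood at 0.904 and Apoc2 at 0.752 times, and the hepatocyte list at -0.23. That list stood at -0.064 in male cells over the members past its minimum there. In female cells Klk1 stood at 0.846 times, set by the 3 UMIs put in place of 0, and the NK list at -1.14. Thinned to 2000 UMIs, Itgae had a share ratio of 2.17 and Id3 of 0.633. The cause of these reversals was not tested.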
